A study of Mus musculus with 3 samples.

Results

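Blood-retina barrier transporters were examined as a set of 10 genes whose products carry nutrients into the retina or return compounds to the blood: Slc2a1, Slc16a1, Slc7a5, Slc3a2, Slc7a1, Slc38a5, Slco1c1, Slco1a4, Abcb1a and Abcg2. They were chosen by name, and each symbol occurred once among the 32285 genes of the deposited matrices. Their mRNA was followed across retinal cell classes and 3 ages in single cells of C57BL/6JRj mice, with no transgene or treatment named for any group. Retinas of young (3 months), adult (12 months) and old (23 months) mice were dissociated, enriched for the endothelial surface protein CD31 on magnetic beads and profiled by droplet sequencing of 3' transcript ends. Material of 2 mice was pooled into 1 library at each age. Age, animals and preparation therefore cannot be told apart, no test was possible, and every interval given is a 95% interval that covers counting error only.

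The inner blood-retina barrier is formed by the endothelial cells of the retinal vessels, whose tight junctions close the path between cells. Nutrients have to cross these cells on carriers: glucose on GLUT1, lactate and related acids on MCT1, and amino acids on LAT1, CAT1 and SNAT5. Efflux pumps return many drugs to the circulation, and organic anion transporters move thyroid hormone and conjugated compounds. The outer barrier is the retinal pigment epithelium, which has its own set of transporters.

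Once barcodes outside the quality limits and called doublets were removed, 1706 young, 1957 adult and 1697 old cells remained, with median unique molecular identifier (UMI) counts of 6355.5, 5964 and 6296. Only 4 barcode sequences were shared between libraries. Endothelial cells numbered 508, 504 and 491 and held 3436587, 3531925 and 3852489 UMIs. Levels are given as CPM, the UMIs of a gene scaled to 1000000 UMIs of the same cells. All 9 endothelial markers, Cdh5 and Cldn5 among them, were detected in each library and summed to 12617, 12958 and 12673 CPM. Droplets that carried endothelial and pericyte markers together (312, 250 and 226) were kept apart as mixed droplets. Another 6 classes had at least 30 cells in each library: pericytes, smooth muscle cells, Müller glia, rods, cones and bipolar cells. The smooth muscle cluster carried 5 of 6 smooth muscle markers and also 4 of 8 pericyte markers. In endothelial cells the 5 erythroid markers summed to 526, 196 and 1319.9 CPM, the 8 pericyte markers to 2039, 2072 and 1338 and the 8 Müller glia markers to 722, 896 and 1091. Whether this was RNA of other cells or endothelial expression was not measured. Its part in the age differences was not tested, other than by leaving out some cells. These were the 131, 157 and 146 endothelial cells that held at least 3 markers of some other class.

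On GRCm38, with gene positions from GENCODE M21, Slc2a1 (ENSMUSG00000028645) chr4:119108711-119137983, Slc16a1 (ENSMUSG00000032902) chr3:104638668-104658462 and Slc7a5 (ENSMUSG00000040010) chr8:121881150-121907694 lie on separate chromosomes, as do Slc3a2 (ENSMUSG00000010095) chr19:8706882-8723369 and Slc38a5 (ENSMUSG00000031170) chrX:8271133-8280179. Slc7a1 (ENSMUSG00000041313) chr5:148327410-148399904 and Abcb1a (ENSMUSG00000040584) chr5:8660077-8748575 share chromosome 5. Abcg2 (ENSMUSG00000029802) chr6:58584523-58695676, Slco1c1 (ENSMUSG00000030235) chr6:141524368-141570177 and Slco1a4 (ENSMUSG00000030237) chr6:141805440-141856199 share chromosome 6. All 10 are annotated as protein coding. Slco1a4 belongs to a family of near copies and Abcb1a has the paralog Abcb1b, so some reads could be split between copies and both values are uncertain to that extent. Abcb1b itself gave 5, 14 and 6 endothelial UMIs in the young, adult and old library.

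Promoter windows from 250 bases before to 50 bases after the annotated start were available from RefSeq (GRCm38.p6) for 9 of the 10 genes, in 12 windows. These starts are not all those of the GENCODE positions above. The Abcb1a window (chr5:8566841-8567140) lies before the gene. That of Slc3a2 (chr19:8713848-8714147) lies within its gene, and that of Slc38a5 almost wholly so. Both strands were searched for ACGTG, the core of hypoxia response elements. It stood in 5 of the 12 windows (those of Slc2a1, Slc16a1, Slc3a2, Slc38a5 and Slco1c1) and in 19.6% of all 32851 windows. The GC box GGGCGG stood in 7 of the 12 against 35.7% of all. The motif CCAAT stood in 5 against 37.4%. The nuclear receptor motif AGGTCA stood in 2, both of Abcg2, against 16.3%. The first part of amino acid response elements, TGATG, stood in 2 against 39.3%. The TCF/LEF motif of Wnt signalling, CTTTGAT, stood in 1, a second Slc7a1 window that is not printed here, against 3.73%. A match is a stretch of letters and not a bound site. Windows are printed for Slc2a1, Slc7a1 and Slc38a5, chosen after the values were seen for their endothelial difference between young and old. Capitals mark the motifs on either strand, and the palindrome in the Slc38a5 window was counted on both.
Slc2a1 promoter, chr4:119108495-119108794, plus strand: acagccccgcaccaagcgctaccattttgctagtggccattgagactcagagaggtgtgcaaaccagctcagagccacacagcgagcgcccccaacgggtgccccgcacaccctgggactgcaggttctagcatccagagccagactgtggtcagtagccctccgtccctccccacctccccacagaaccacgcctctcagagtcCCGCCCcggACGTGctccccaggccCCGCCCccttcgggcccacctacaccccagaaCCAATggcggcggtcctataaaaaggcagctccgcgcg
Slc7a1 promoter, chr5:148399855-148400154, minus strand: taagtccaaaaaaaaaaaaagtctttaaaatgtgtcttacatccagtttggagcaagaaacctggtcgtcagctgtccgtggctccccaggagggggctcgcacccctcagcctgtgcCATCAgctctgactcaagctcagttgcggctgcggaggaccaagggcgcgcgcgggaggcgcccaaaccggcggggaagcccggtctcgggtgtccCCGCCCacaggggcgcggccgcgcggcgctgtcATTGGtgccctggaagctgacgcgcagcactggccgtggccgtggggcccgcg
Slc38a5 promoter, chrX:8271131-8271430, plus strand: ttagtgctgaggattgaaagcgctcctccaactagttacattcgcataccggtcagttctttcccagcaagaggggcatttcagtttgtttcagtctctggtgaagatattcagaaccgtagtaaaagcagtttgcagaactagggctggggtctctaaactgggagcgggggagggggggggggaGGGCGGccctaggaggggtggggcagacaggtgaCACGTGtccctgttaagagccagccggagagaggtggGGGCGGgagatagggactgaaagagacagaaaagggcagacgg

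Among these 7 compared classes, endothelial cells held the highest level of each of the 10 transporters in each of the 3 libraries. The pigment epithelium, with enough cells in the old library only, is not among them and is described last. For 9 of them the endothelial level was at least 2 times that of each of the other 6 classes in all libraries, where 6.57% of the 8402 genes with at least 100 endothelial UMIs met that condition. Slc3a2 missed it in the old library, at 1.93 times Müller glia. It met it, so that the count was 10, with doublets kept, in the largest capillary cluster alone and with clusters weighted as in the young library, the last 2 chosen after the data were seen. The classes are clusters of these cells, drawn without the transporter genes, so this is a description and no test. Levels are compared between cells and not between genes.

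**Figure D1:**
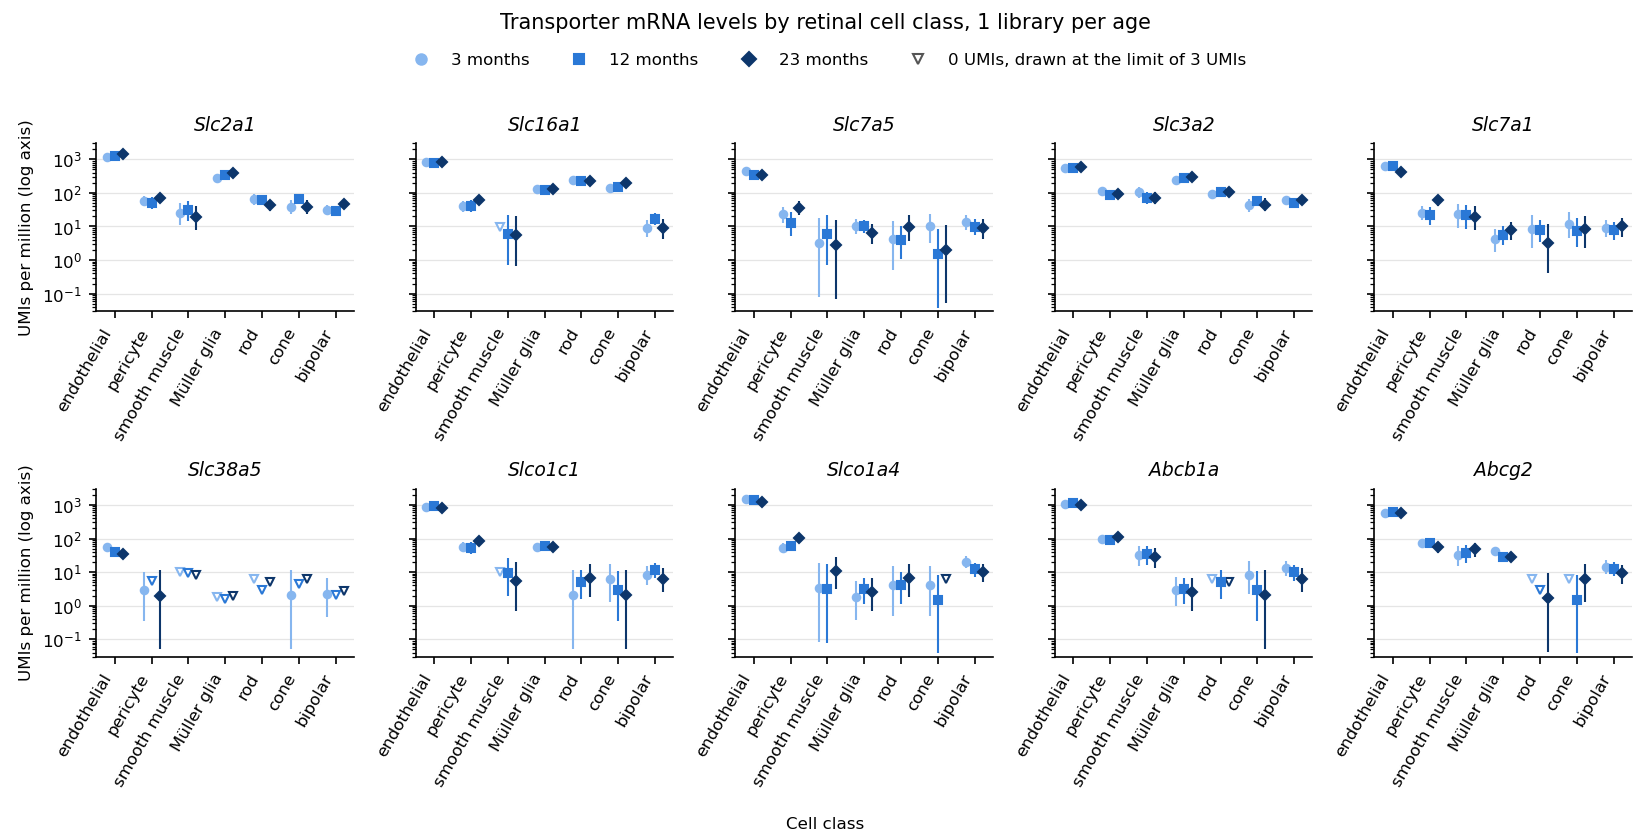
Levels of the 10 transporters (CPM, log axis) in 7 retinal cell classes, with 1 point per library and age, exact 95% Poisson intervals as bars and open triangles for 0 UMIs at the level that 3 UMIs would give. Endothelial points lie above all others in each panel, and Müller glia stand next for Slc2a1 and Slc3a2 and rods for Slc16a1.

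Endothelial transcripts can enter other droplets, for example as free RNA from broken cells, and the route was not measured here. Levels outside the endothelium are therefore given beside the 9 endothelial markers in the same class. The median marker stood at 0.27 to 0.33% of its endothelial level in Müller glia, 0.31 to 0.50% in rods, 0.00 to 0.49% in cones, 0.51 to 1.10% in bipolar cells, 0.14 to 1.74% in smooth muscle and 5.18 to 8.75% in pericytes. The median was used, a choice made after the values were seen, because single markers lay far above it: Kdr reached 172% of its endothelial level in Müller glia and Esam 81.5% in pericytes.

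Slc2a1 encodes the glucose carrier GLUT1. Its endothelial level was 1165, 1223 and 1487 CPM in the young, adult and old library. In endothelial cells thinned to 2000 UMIs each, 85.2, 86.5 and 89.2% held at least 1 UMI, against 13.3, 10.6 and 11.3% of rods. The old library was the highest, at 1.28 (1.23 to 1.33) times young and 1.22 (1.17 to 1.27) times adult, and adult cells were at 1.05 (1.00 to 1.10) times young. Among the compared classes Müller glia ranked next with 283, 339 and 381 CPM, or 24.3 to 27.7% of the endothelial level, far above the median marker. Their old to young ratio was 1.35 (1.19 to 1.52), and that of the mixed droplets was 1.29 (1.23 to 1.35). Pericytes (51.3 to 72.3 CPM), rods (42.8 to 64.6), cones (38.6 to 64.1), bipolar cells (28.2 to 46.4) and smooth muscle (19.5 to 30.4) followed, and neighbours in this order overlapped over the libraries. Their old to young ratios were 1.23 (0.76 to 1.97) in pericytes, 0.66 (0.38 to 1.15) in rods, 1.01 (0.50 to 2.01) in cones, 1.45 (0.94 to 2.23) in bipolar cells and 0.75 (0.23 to 2.37) in smooth muscle, and each interval included 1.

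Slc16a1 encodes the monocarboxylate transporter MCT1. Endothelial cells held 825, 786 and 856 CPM, and the old to young ratio of 1.04 had an interval (0.99 to 1.09) that included 1. Rods held 238, 222 and 222 CPM and cones 140.3, 155 and 203, which is 26.0 to 28.8% and 17.0 to 23.7% of the endothelial level. Both photoreceptor classes were thus far above their median endothelial marker. Müller glia (119 to 135 CPM), pericytes (40.2 to 62.3), bipolar cells (9.09 to 16.9) and smooth muscle (0 to 6.08) followed, and no neighbours in this order overlapped. In thinned rods 37.1, 37.3 and 40.8% held a Slc16a1 UMI, against 59.7, 60.1 and 58.8% of endothelial cells. Old cones were at 1.44 (1.05 to 1.99) times young cones, on 99 and 69 UMIs. Bsg, which encodes the chaperone basigin that brings MCT1 to the membrane, stood at 13369, 14165 and 14274 CPM in endothelial cells.

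Slc7a5 and Slc3a2 encode the light and heavy chain of the large neutral amino acid transporter LAT1, and the heavy chain also pairs with other light chains. Slc7a5 was at 444, 332 and 352 CPM in endothelial cells, highest in the young library. Adult cells held 0.75 (0.69 to 0.81) and old cells 0.79 (0.74 to 0.85) times the young level. The old to adult ratio of 1.06 had an interval (0.98 to 1.15) that included 1. In the mixed droplets the adult to young ratio was 0.75 (0.69 to 0.82) and the old to young ratio 0.85 (0.78 to 0.92). Among the other 6 compared classes Slc7a5 did not exceed 36.2 CPM, in old pericytes.

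The heavy chain was spread more widely. Slc3a2 stood at 564, 538 and 587 CPM in endothelial cells and at 246, 269 and 304 in Müller glia. Rods (93.8 to 104 CPM), pericytes (84.2 to 113) and smooth muscle (72.4 to 104) overlapped in the middle, and bipolar cells (50.8 to 62.5) and cones (42.7 to 58.2) were lowest. In each class and library this was a larger share of the endothelial level than that of the median marker. In pericytes the share, 15.7 to 20.1%, was below that of the marker Emcn, 46.6 to 57.5%. The Müller glia level was 1.23 (1.08 to 1.41) times as high in old as in young, and the endothelial ratio of 1.04 had an interval (0.98 to 1.11) that included 1. In thinned endothelial cells 34.9, 25.2 and 27.9% held UMIs of both chains. Slc3a2 was detected in 66.0, 58.8 and 62.7% of cells with a Slc7a5 UMI and in 61.4, 58.2 and 65.3% of the rest, with no common direction over the libraries.

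Slc7a1 encodes CAT1, a carrier of arginine and lysine. Its endothelial level was 617, 630.3 and 428 CPM, with the old library below the other two. The old to young ratio was 0.69 (0.65 to 0.74) and the adult to young ratio 1.02 (0.96 to 1.08). Mixed droplets, at 501, 452 and 347 CPM, gave an old to young ratio of 0.69 (0.64 to 0.74). Pericytes held 18, 12 and 30 UMIs, and here the old library was the highest, at 2.33 (1.26 to 4.44) times young. In pericytes 9.45% of the 2911 genes with at least 100 UMIs were past 1.5-fold, and Slc7a1 was under that minimum. The median endothelial marker in pericytes was at 8.75% of its endothelial level in the old library and at 5.78% in the young one, and the part of this in the pericyte ratio was not tested. Smooth muscle held 19.5 to 22.8 CPM and the neural and glial classes at most 12.2.

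Slc38a5 encodes SNAT5, a carrier of glutamine and other neutral amino acids. Endothelial cells held 196, 140 and 134 UMIs, or 57.0, 39.6 and 34.8 CPM, in 7.07, 4.59 and 3.98% of thinned cells. The young library was the highest, with an old to young ratio of 0.61 (0.49 to 0.76) and an adult to young ratio of 0.70 (0.56 to 0.87). At most 3 UMIs were found in any of the other 6 compared classes in a library, and rods, Müller glia and smooth muscle had 0. In Müller glia 0 UMIs allow a level of up to 1.81, 1.54 and 1.93 CPM.

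Slco1c1 and Slco1a4 encode the organic anion transporters OATP1C1, which carries thyroxine, and OATP1A4. Slco1c1 stood at 876, 908 and 833 CPM in endothelial cells, with an old to young ratio of 0.95 (0.90 to 1.00). Müller glia held 55.6, 58.7 and 54.2 CPM, or 6.34 to 6.50% of the endothelial level. This was above their median marker but below the markers Flt1 (15.3 to 17.3%) and Kdr (135 to 172%). Pericytes held 53.1 to 84.4 CPM, which overlapped with Müller glia, and the other compared classes did not exceed 11.3.

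Slco1a4 was at 1543, 1413 and 1263 CPM in endothelial cells, each library below the younger one. Its adult to young ratio was 0.92 (0.88 to 0.95) and its old to young ratio 0.82 (0.79 to 0.85). Müller glia held at most 3.09 CPM, below their median marker as a share of the endothelial level, whereas Slco1c1 was above it. Pericytes held 51.7, 60.4 and 102 CPM from 36, 33 and 51 UMIs, highest in the old library, with an old to young ratio of 1.98 (1.27 to 3.13). This was 3.35, 4.28 and 8.11% of the endothelial level, below the median marker of pericytes in each library, which stood at 5.78, 5.18 and 8.75%.

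Abcb1a and Abcg2 encode the efflux pumps P-glycoprotein and BCRP. Abcb1a stood at 1059, 1105 and 1021 CPM in endothelial cells. Its old to young ratio of 0.96 had an interval (0.92 to 1.01) that included 1, and its old to adult ratio was 0.92 (0.88 to 0.97). Abcg2 stood at 594, 613 and 588 CPM, with an old to young ratio of 0.99 and an interval (0.93 to 1.05) that included 1. Among the compared classes pericytes came next for both pumps, with 93.4 to 108 CPM of Abcb1a and 56.3 to 73.3 of Abcg2. As a share of the endothelial level this was 8.45 to 10.6% for Abcb1a and 9.57 to 12.1% for Abcg2, beside 5.18 to 8.75% for the median marker and 8.32 to 10.5% for the 9 markers summed, whose range overlapped with that of both pumps. Müller glia held 27.7 to 41.1 CPM of Abcg2 and at most 3.09 of Abcb1a. Both pumps were detected together in 59.3, 56.2 and 53.1% of thinned endothelial cells.

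Across the set, 1 of the 10 transporters, Slc38a5, was past 1.5-fold between old and young endothelial cells and was lower in the old library. With the mixed droplets counted as endothelial its ratio was 0.702 and none of the 10 was past 1.5-fold. Of the 8402 genes compared, 6.53% were past 1.5-fold in either direction and 2.42% were lower. Between adult and young none of the 10 was past 1.5-fold, against 3.34% of genes. The old to young ratio was above 1 for Slc2a1, Slc3a2 and Slc16a1, that is 3 of 10. In the largest capillary cluster alone it was above 1 for 6 of 10, with Slco1c1, Abcb1a and Abcg2 besides, and for 5 with the mixed droplets counted as endothelial. The median log2 ratio of the 10 was -0.06 against 0.03 over all genes. The 10 together held 7744, 7587 and 7451 CPM, a ratio of 0.980 (0.963 to 0.997) for adult to young and 0.962 (0.946 to 0.978) for old to young. The old to young ratio of the sum was 1.25 (1.08 to 1.45) in pericytes and 1.18 (1.09 to 1.27) in Müller glia. It was 0.94 in smooth muscle, 0.96 in rods, 1.16 in cones and 0.91 in bipolar cells, with intervals that included 1. Among 12 genes of the dissociation response 3 were past 1.5-fold and lower in old endothelial cells (Fosb, Hspa1a and Hspa1b, at 0.53, 0.59 and 0.31 times young), and their part in the transporter values was not tested. Of 13 amino acid response genes 4 had at least 100 UMIs and none was past 1.5-fold. Among the 60 pairs of a transporter and 1 of the other 6 classes, 56 had UMIs. Of these 5 had an old to young interval above 1 and 0 had one below 1.

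**Figure D2:**
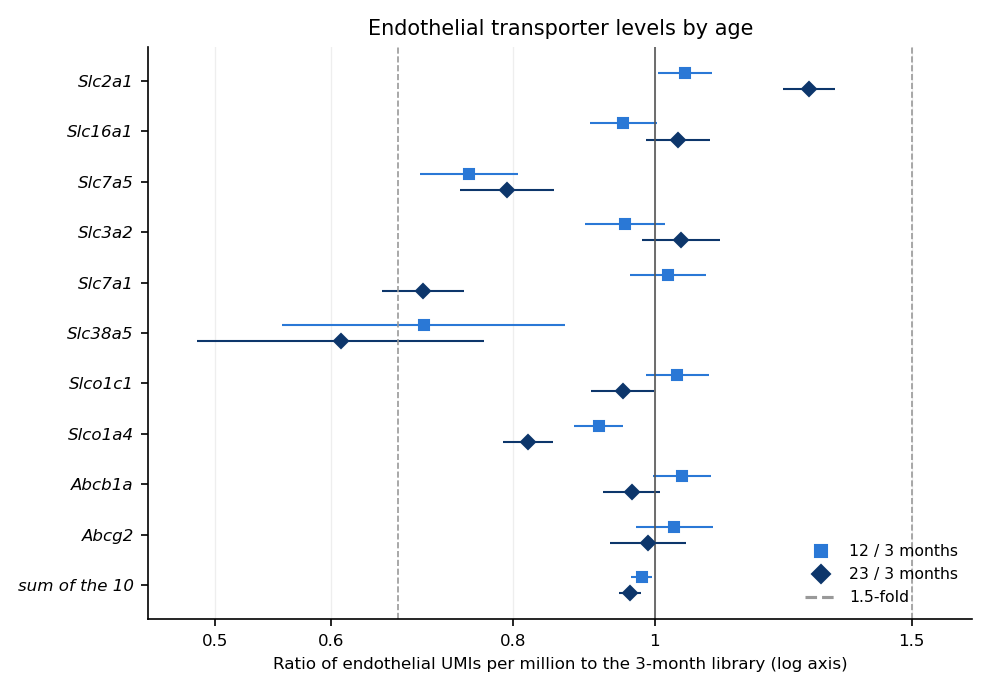
Ratio of endothelial CPM to the 3-month library (log axis) for the 12-month and 23-month libraries, with exact conditional 95% intervals as bars, dashed lines at 1.5-fold and the sum of the 10. Slc2a1 at 23 months lies highest, at 1.28, and Slc7a1 (0.69) and Slc38a5 (0.61) lie lowest.

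The transporters also varied within the endothelium. A second clustering of the endothelial cells, again without the transporter genes, gave a capillary cluster (283, 196 and 200 cells, 4 of 4 capillary markers, 3 of 9 venous and 1 of 8 arterial ones) led by Cxcl10 and S100a8, immune genes. A second cluster held 6 of 8 arterial markers (48, 72 and 91 cells), with 3 capillary markers, 4 of 9 venous markers and haemoglobin genes among its leading genes. Another held 6 of 9 venous markers, 4 capillary and 0 arterial ones (39, 41 and 35 cells). Its cells had a median of 12012, 14833 and 13823 UMIs, against 5235, 5996 and 6932 in the capillary cluster. The other clusters were led by genes of rods, pericytes or smooth muscle, by Plvap with platelet genes further down, or were low in UMIs. They were not compared but remain in the pooled endothelial values. The one with rod genes made up 5.51, 17.7 and 10.8% of young, adult and old endothelial cells.

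Slc16a1 and Slc7a5 were low in the arterial-marker cluster. Slc16a1 stood at 327, 275 and 351 CPM there and at 895, 862 and 1066 in the capillary cluster, a ratio of 0.37, 0.32 and 0.33 in the young, adult and old library. Slc7a5 stood at 186, 203 and 154 CPM against 487, 345 and 419, a ratio of 0.38, 0.59 and 0.37. Abcg2 was also lower, at 0.63, 0.56 and 0.54 times the capillary level, and Slc38a5 gave 0, 0 and 10 UMIs in the arterial-marker cluster, where 3 UMIs would make 6.28, 4.91 and 3.25 CPM. Those 4 of the 10 were at least 1.5-fold lower in each library, against 1.71% of 7115 genes. With 20 or 40 components in the clustering in place of 30, the same 4 were past 1.5-fold. Slc2a1 had the opposite order, with 1433, 1589.6 and 1694 CPM in the arterial-marker cluster and ratios of 1.24, 1.37 and 1.14 to the capillary cluster.

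Slc38a5 was highest in the venous-marker cluster, with 228, 114 and 137 CPM against 35.3, 32.1 and 22.6 in the capillary cluster, a ratio of 6.48, 3.54 and 6.06, and of 4.02, 2.49 and 4.25 with 20 components. It was among the 10 genes that led the venous-marker cluster although it was not used to draw it. It was the only 1 of the 10 at least 1.5-fold higher there in each library, against 1.3% of 6914 genes. Slc16a1 was 1.40, 1.34 and 1.10 times the capillary level, but 1.00, 0.95 and 1.17 times with 20 components. No separate venous-marker cluster formed with 40 components. Slco1c1 was lowest in the venous-marker cluster in each library, with 717, 729 and 474 CPM and ratios of 0.83, 0.79 and 0.55 to the capillary cluster. With 20 components these ratios were 0.72, 0.67 and 0.70, so the lower old ratio was not repeated.

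**Figure D3:**
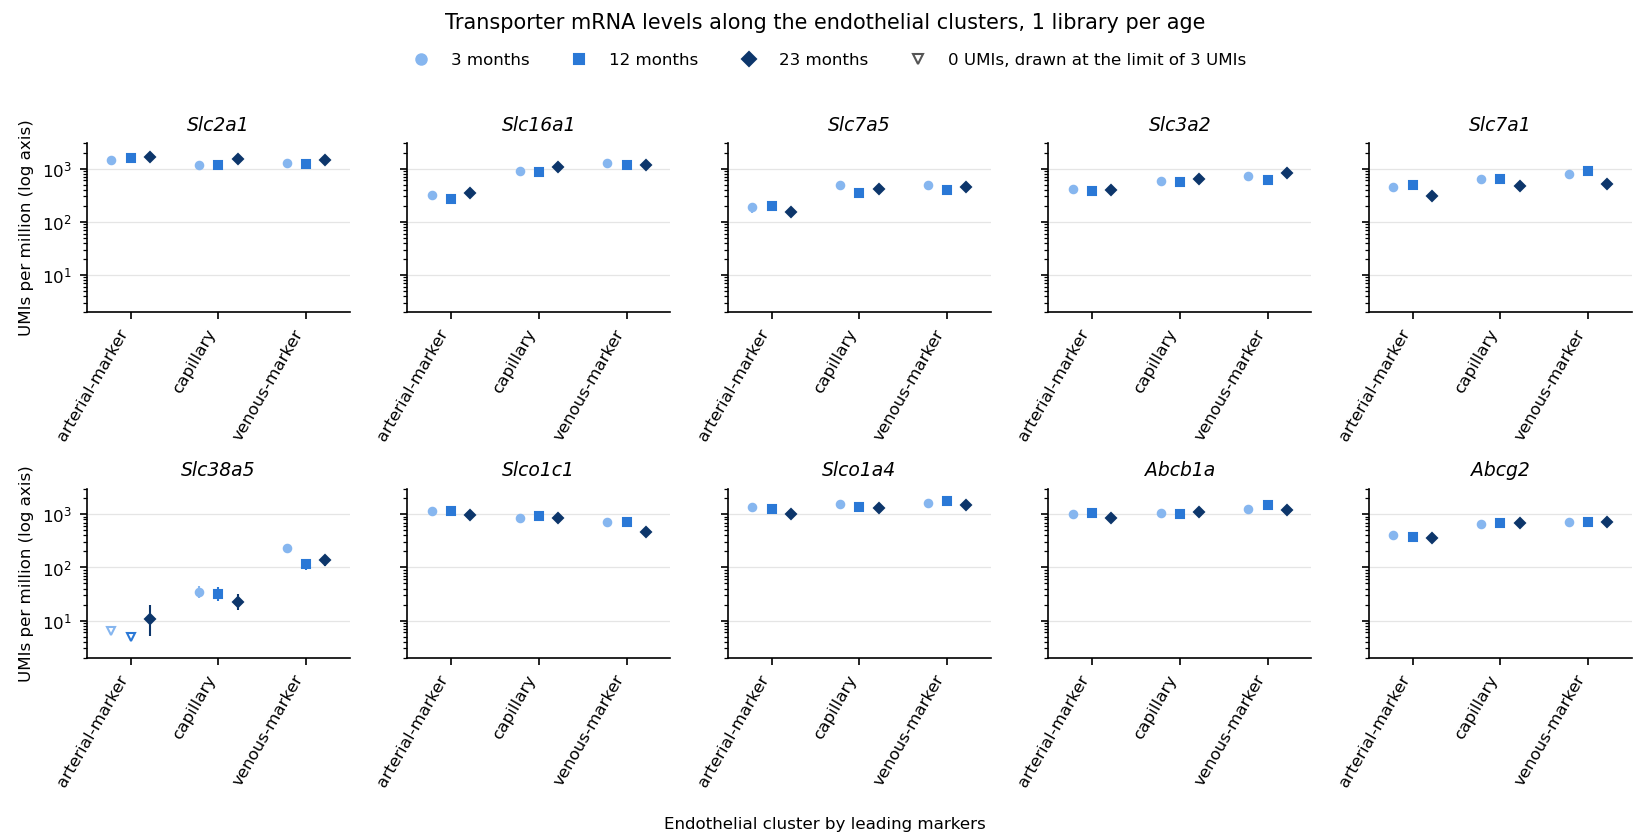
Levels of the 10 transporters (CPM, log axis) in the arterial-marker, capillary and venous-marker endothelial clusters, with 1 point per library and age, exact 95% Poisson intervals as bars and open triangles for 0 UMIs. Slc16a1, Slc7a5 and Slc38a5 are low in the arterial-marker cluster in all 3 libraries, and Slc2a1 is slightly higher there.

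The arterial-marker cluster made up 9.45% of young, 14.3% of adult and 18.5% of old endothelial cells, so age ratios were also taken within clusters. Slc2a1 was higher in old than in young cells of the capillary (1.29, 1.22 to 1.37), arterial-marker (1.18, 1.08 to 1.30) and venous-marker cluster (1.16, 1.05 to 1.29). Slc7a1 was lower in all 3, at 0.74 (0.67 to 0.81), 0.68 (0.57 to 0.81) and 0.64 (0.54 to 0.74). Both transporters thus kept the direction of the pooled cells. Slco1a4 was lower in the capillary (0.83, 0.78 to 0.87) and arterial-marker cluster (0.72, 0.65 to 0.80), and its interval included 1 in the venous-marker cluster (0.92, 0.84 to 1.02). Slc7a5 was at 0.86 (0.78 to 0.95) in the capillary cluster, and its interval included 1 in the arterial-marker (0.82, 0.63 to 1.09) and venous-marker cluster (0.90, 0.75 to 1.08). Slc38a5 was at 0.64 (0.42 to 0.98) in the capillary and 0.60 (0.44 to 0.81) in the venous-marker cluster, from 63, 47 and 37 and 117, 72 and 73 UMIs. In the arterial-marker cluster it was higher in the old library, with 10 UMIs or 10.8 CPM against 0 UMIs in the young and the adult one. The interval of the ratio started at 1.16 for old to young and 1.48 for old to adult. This was not repeated with 20 or 40 components, where the old arterial-marker to capillary ratio of Slc38a5 was 0. The ratio above 0 was then the young one (0.058, 20 components) or the adult one (0.052, 40 components). Ratios within a cluster could lie apart from the pooled ratio, a difference that was not tested. Slc16a1 was at 1.19 (1.11 to 1.28) in the capillary cluster, at 1.07 (0.88 to 1.31) in the arterial-marker cluster and at 0.94 (0.84 to 1.05) in the venous-marker cluster. Slco1c1 was at 1.01 (0.94 to 1.09), 0.86 (0.77 to 0.95) and 0.66 (0.56 to 0.78) in the same order. Age ratios within clusters were not taken with 20 or 40 components.

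**Figure D4:**
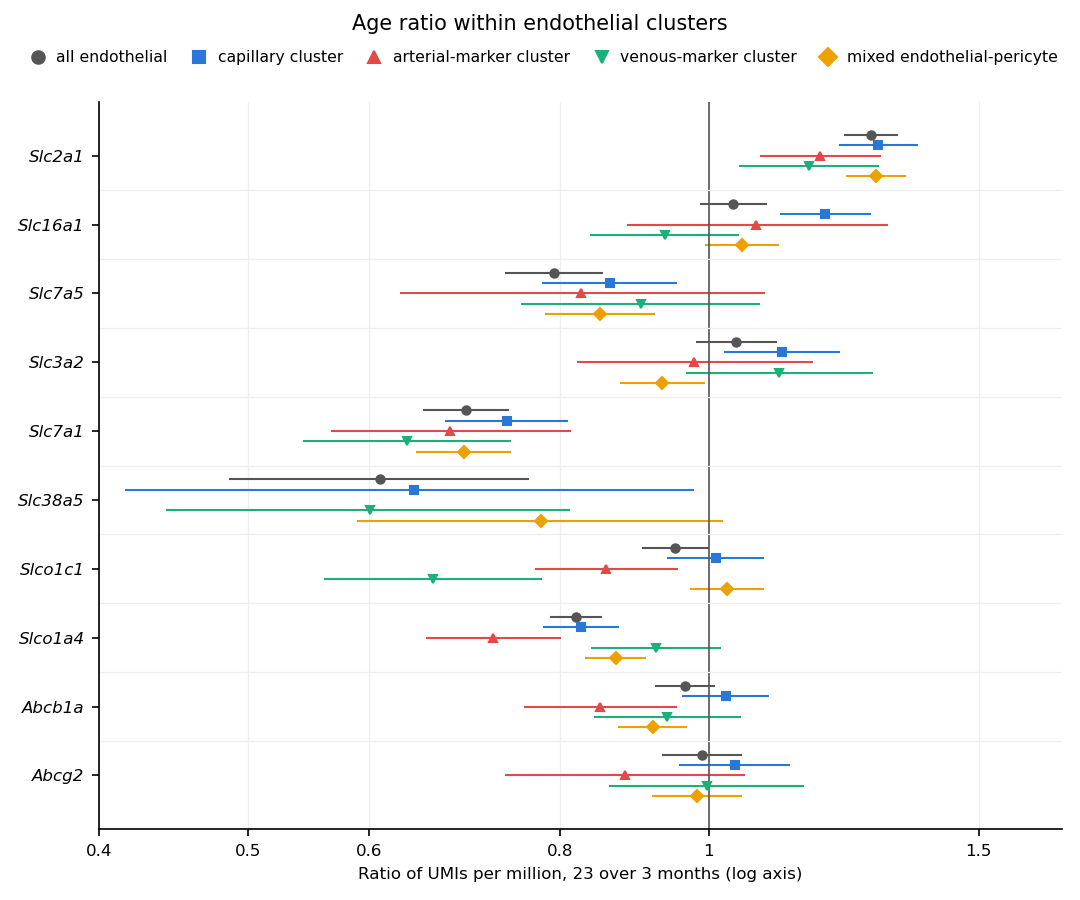
Ratio of CPM in the 23-month over the 3-month library (log axis) for each transporter over all endothelial cells, within the capillary, arterial-marker and venous-marker clusters and in the mixed endothelial-pericyte droplets, with exact conditional 95% intervals as bars. All 5 points of Slc2a1 lie above 1 and all 5 of Slc7a1 below it. Slc38a5 has no arterial-marker point, since it had 0 young UMIs there against 10 old ones.

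Endothelial cells carried several of the transporters each. Thinned to 2000 UMIs, they held UMIs of a median of 7, 6 and 6 of the 10 genes by increasing age, and 86.7, 85.8 and 83.4% held at least 5. Rods held a median of 1, 1 and 1.

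Other transporters of the barrier, a list of 28 genes, gave 22 with at least 100 endothelial UMIs. Their median log2 old to young ratio was -0.21, with 6 above 1. Slco2b1, another organic anion transporter, stood at 116, 88.1 and 73.2 CPM (0.63, 0.54 to 0.73 for old to young), and Lrp1, a lipoprotein receptor, at 13.1, 15.6 and 7.27 CPM (0.56, 0.33 to 0.91). They were the only 2 of these 22 genes past 1.5-fold, against the 6.53% of all genes given above. The genes most like each transporter were found by Pearson's r of log2(CPM + 10) over 21 sums of class and library and 12178 genes, a description in which the sums share libraries and depth. They were Bsg for Slc2a1 (r = 0.968), Jam2 for Slc16a1 (0.961), Sox17 for Slc7a5 (0.988), Smox for Slc3a2 (0.954) and Erg for Slc7a1 (0.982). For the others they were Stab1 for Slc38a5 (0.994), Amot for Slco1c1 (0.984), Tek for Slco1a4 (0.992), Acvrl1 for Abcb1a (0.990) and Ctnnb1 for Abcg2 (0.981).

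The outer barrier could be described in the old library only, in which 54 cells carried pigment epithelium markers such as Rpe65 (3156 CPM), against 1 young and 7 adult cells. The marker Best1 had 0 UMIs there. These cells held 966 CPM of Slc2a1 (851 to 1093) and 905 of Slc16a1 (793 to 1028), beside 1487 and 856 in old endothelial cells. The 9 endothelial markers stood at a median of 2.56% of their old endothelial level there, with Pecam1 at 14.1% and Esam at 18.7%. Slc16a1 was at 106% of its endothelial level, Slc2a1 at 65.0%, Slc3a2 at 47.0% (276 CPM) and Slco1c1 at 31.3% (261 CPM). Each interval lay above the values of all 9 markers. That of Slco1c1 (24.3 to 39.8%) overlapped with the interval of Esam (11.9 to 27.9%). Slco1a4, at 19.7% (15.2 to 25.2) and 249 CPM, and Slc7a5, at 16.3% (9.12 to 27.1) and 57.5 CPM, were above the median marker. Their intervals included the share of Esam, so these levels were not distinguished from RNA of other cells. This limit is stricter than the median marker used for the other classes. Abcg2, Slc7a1, Abcb1a and Slc38a5 gave 6, 5, 3 and 0 UMIs among 260749, and the intervals of their shares included the median marker.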

How the data were processed

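The authors deposited raw UMI counts for each gene and barcode of 3 libraries of CD31-enriched mouse retina, made with Cell Ranger 6.1.2 on mm10 according to the submitters' processing notes. Barcodes with 500 to 6000 genes and 1 to 20% mitochondrial UMIs were kept (1713, 1974 and 1713), and Scrublet (scanpy 1.11.5) marked 7, 17 and 16 of them, a weak call, since mixed endothelial and pericyte droplets remained. Cells were integrated and clustered in Seurat 5.3.0 (R 4.3.3) on 2000 features and 30 components at resolution 0.5, with the transporter lists kept out of the features. Clusters were named from markers: a marker counted at 20% detection and 25% of its highest cluster, a name needed 3 markers, and 50% of the markers of more than 1 class made a cluster mixed, except that pericyte and smooth muscle markers together took the name with the higher share. A low-UMI endothelial cluster led by Gm26917 (51, 45 and 63 cells) kept its name.

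UMIs were summed per class and library and divided by the class total. Sums carry exact Poisson intervals and ratios exact conditional intervals (scipy 1.17.1) at 95%, and a count of 0 is given with the level that 3 counts would make. With 1 library per age there was no test. Genes counted as past a fold at 1.5-fold either way. Named genes were the 10 transporters, members of the other barrier list past 1.5-fold, and the gene most like each transporter. Beyond this rule, Abcb1b, dissociation genes past 1.5-fold, markers and leading genes of clusters were named. Members and lists were chosen with earlier results of these data known. The ratio script was tested on simulated counts. Alternatives were another scaling, thinning to 2000 UMIs, other choices of endothelial cells, barcode limits, doublets, resolution, cell weights and components.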

Additional observations from a re-analysis of the deposited data

Results flagged for a closer look

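Slc7a1 had an old to young ratio of 0.694 in endothelial cells and of 2.33 in pericytes. Slco1a4 had a ratio of 0.819 in endothelial cells and of 1.98 in pericytes. The median endothelial marker in pericytes stood at 5.78, 5.18 and 8.75% of its endothelial level in the young, adult and old library. Slco1a4 in pericytes, at 3.35, 4.28 and 8.11%, was below that share in each library, so its pericyte ratio is not shown to be one of pericyte expression. Slc7a1 in pericytes, at 4.19, 3.49 and 14.1%, was below it in the young and adult library and above it in the old one. Both were singled out because the only libraries of these ages moved in opposite directions in the 2 classes, with intervals for counting error on opposite sides of 1. The difference itself was not tested.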

How the results depend on the processing

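No paired analysis was possible because each age has replicate 1 only, and leaving out a replicate was not possible because each age has 1 library. The ratios of the summed transporters, 0.962 for old to young and 0.98 for adult to young in the report, were 0.945 and 0.953 with median-of-ratios size factors, 0.945 and 0.931 with cells thinned to 2000 UMIs, and 0.993 and 0.962 with mixed droplets counted as endothelial. With cells weighted alike the adult to young ratio was 0.961. Of the alternatives chosen after the data were seen, the largest capillary cluster alone gave 1.01 for old to young, on the other side of 1, and weighting the clusters as in the young library gave 0.986. With mixed droplets included 0 transporters were past 1.5-fold in place of 1, with Slc38a5 at 0.702. Slco1c1 passed to the other side of 1 with mixed droplets (1.01) and in the capillary cluster alone (1.01), Abcb1a with thinned cells (1.03) and in the capillary cluster (1.03), and Abcg2 with mixed droplets (1.01), in the capillary cluster (1.04) and with clusters reweighted (1.05). The cause was not tested. Of 110 old to young ratios of single transporters under 11 alternatives, 98 stayed within the interval of the report. Those at resolution 1.0 were identical to the report, and size factors multiplied all transporters by the same number, so such agreements add little. The ranges were 1.25 to 1.32 for Slc2a1, 0.674 to 0.741 for Slc7a1, 0.783 to 0.869 for Slco1a4, 0.776 to 0.862 for Slc7a5, 0.947 to 1.03 for Abcb1a and 0.848 to 1.05 for Abcg2. With genes from 30 or 1 UMIs in place of 100, 12.7 and 32.4% of genes were past 1.5-fold. Cells at the border of the endothelial clusters changed cluster with the numerical settings, and clusterings with 20 and 40 components were added after the data were seen. The count of transporters lower in the arterial-marker cluster was 4 in both, and with 40 components no venous-marker cluster formed, so the venous count could not be repeated there. Values of Slc38a5 and of pericytes rest on few UMIs and have wide intervals.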
